A study of Mus musculus with 15 samples.

Results

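The eukaryotic translation initiation factors were taken as all mouse genes whose symbol starts with Eif and a digit from 1 to 6 and that had a probe set carrying 1 gene symbol on the array. They were 47 of 18193 such genes. Of the 47, 46 were off the background of the arrays and were tested among 12423 genes. The exception was Eif4a3, a helicase of the exon junction complex, whose only such probe set followed the background. Eif1, Eif2s1, Eif3g, Eif4g1 and Eif4ebp3 are not analysed here. The 46 genes had 115 probe sets off the background, and each gene is given by the 1 that varied most over the arrays, so its values are those of its most variable probe set. The RNA came from primary hepatocytes of male C57BL/6 mice, on 15 arrays in 5 groups of 3 independent biological replicates. The cultured groups were hepatocytes kept for 4 h in a rotating wall vessel (RWV), where the cells form aggregates, hepatocytes kept for 4 h as a monolayer in a tissue culture dish (TCD), and the same 2 cultures at 24 h. The fifth group was freshly isolated hepatocytes (t0, called fresh below). The labels give no age for the mice.

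Initiation starts when the small ribosomal subunit, loaded by eIF1, eIF1A, eIF3 and eIF5 and by the ternary complex of eIF2, GTP and initiator tRNA, joins an mRNA held at its cap by eIF4F, that is eIF4E, the scaffold eIF4G and the helicase eIF4A. The complex scans to the start codon, eIF5B joins the large subunit, and eIF2B recharges eIF2 with GTP. Kinases that sense stress phosphorylate eIF2 and so block eIF2B, while the eIF4E-binding proteins keep eIF4E from eIF4G until mTOR phosphorylates them. In liver both steps are known to follow feeding, amino acids and insulin.

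The members that differed between the vessels at 24 h carry the comparison, so the start regions that RefSeq (GRCm38.p6) places upstream of 4 of them are shown. Each sequence is the 250 bases before the annotated gene or transcript start, 5′ to 3′ on the plus strand, which is the coding strand of all 4. Capitals mark CACGTG, the E-box that Myc and related factors bind, and GGGCGG, the GC box that Sp1 binds, in either orientation (CCGCCC is its reverse complement). Eif4e encodes the cap-binding protein, Eif2b2 a subunit of eIF2B, Eif1b a close homologue of the start codon factor eIF1, and Eif4a2 a helicase of eIF4F.
Eif4e chr3:138527018-138527267: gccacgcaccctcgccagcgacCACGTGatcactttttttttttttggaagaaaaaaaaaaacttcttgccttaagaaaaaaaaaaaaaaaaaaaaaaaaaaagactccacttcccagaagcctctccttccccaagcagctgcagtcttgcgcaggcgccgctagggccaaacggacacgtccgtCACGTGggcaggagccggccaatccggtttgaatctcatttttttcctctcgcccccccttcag
Eif2b2 chr12:85219231-85219480: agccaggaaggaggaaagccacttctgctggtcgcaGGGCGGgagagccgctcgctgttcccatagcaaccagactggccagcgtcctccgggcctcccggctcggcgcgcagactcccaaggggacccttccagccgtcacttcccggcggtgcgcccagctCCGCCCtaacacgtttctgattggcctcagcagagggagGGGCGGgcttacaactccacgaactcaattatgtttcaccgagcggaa
Eif1b chr9:120492356-120492605: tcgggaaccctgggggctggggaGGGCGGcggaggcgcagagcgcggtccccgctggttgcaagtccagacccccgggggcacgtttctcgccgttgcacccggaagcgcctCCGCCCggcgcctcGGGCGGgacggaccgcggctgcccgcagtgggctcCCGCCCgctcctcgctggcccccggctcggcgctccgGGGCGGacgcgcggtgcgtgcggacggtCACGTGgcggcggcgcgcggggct
Eif4a2 chr16:23107218-23107467: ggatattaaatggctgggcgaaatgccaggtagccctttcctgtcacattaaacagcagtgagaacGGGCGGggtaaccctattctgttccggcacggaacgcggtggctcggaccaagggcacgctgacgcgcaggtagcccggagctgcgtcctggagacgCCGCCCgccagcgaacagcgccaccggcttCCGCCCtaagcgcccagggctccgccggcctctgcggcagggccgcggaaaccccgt
The Eif4e window held 2 E-boxes, whose first bases lie 228 and 64 bases before the start, and no GC box. A second Eif4e start in the same table had neither in its 250 bases. The Eif2b2 window held 3 GC boxes and the Eif4a2 window 3, with no E-box in either. The Eif1b window held 5 GC boxes and 1 E-box, 24 bases before the start. The table had no entry for Eif4ebp1. Over 51 windows of the 38 members in the table, 19.6% held CACGTG and 66.7% held GGGCGG on either strand. Over all 32851 windows of the same length the shares were 6.02% and 32.7%. The 2 motifs overlapped in no shown window, and a match is a description of the letters.

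Each value is a log2 change from the median of the fresh arrays, which had been subtracted from every probe set, so 1 unit is a 2-fold change and no gene's own level is known. On 1 array, replicate 2 of TCD at 4 h, the hybridisation controls had a median of 1.08, against -0.73 to 0.18 elsewhere. The array weights of limma put this array at 0.171. They were used only in an alternative, and the main calls weight all arrays equally. Of 8 hepatocyte markers 7 were tested, and their mean was 0.01 on each RWV array at 4 h, between -0.12 and 0.05 on the TCD arrays at 4 h, between -2.20 and -1.73 on the RWV arrays at 24 h and between -1.85 and -1.61 on the TCD arrays at 24 h. Because the fresh level had been removed, the arrays cannot show how strongly markers of other liver cells were expressed in fresh cells. In these bulk samples fewer cells of a type and less RNA per cell cannot be told apart. A gene was called at a limma adjusted p below 0.05 over all genes tested, and an error after ± is a standard error of that fit unless an SD is named.

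The comparisons of 4 h cultures with fresh cells ask which initiation factor genes changed first. At 4 h, 16 of 46 members were higher and 3 lower in RWV than in fresh cells, and 12 were higher and 4 lower in TCD than in fresh cells, but after each array had been centred on 7 reference genes the split was 10 higher and 9 lower in RWV and 7 higher and 5 lower in TCD. Of all genes tested 29.6% were called in RWV (15.1% higher, 14.4% lower) and 25.5% in TCD (9.54% higher, 15.9% lower), and after centring 10.9% were higher and 47.2% lower in RWV and 7.3% were higher and 26.4% lower in TCD. The members' median was 0.33 in RWV and 0.13 in TCD, against -0.07 and -0.05 over all genes. The 2 comparisons share the fresh arrays.

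Eif4e had the largest early rise among the 46 members. Its values were 6.78, 6.93 and 6.76 on the RWV arrays and 6.02, 6.57 and 6.54 on the TCD arrays at 4 h, against 0.00, 1.09 and -0.38 on the fresh arrays. Neither cultured group came near the fresh one, and the rises were 6.59 ± 0.36 in RWV (adjusted p = 1.25e-07) and 6.14 ± 0.36 in TCD (adjusted p = 2.39e-07). Its other 3 probe sets were also called higher in both vessels, by 1.16, 1.46 and 2.59 in RWV and by 1.13, 1.26 and 3.26 in TCD, so the size of the rise depends on the probe set. Eif4ebp1, whose product blocks eIF4E, rose as well. It stood at 1.97, 1.77 and 1.77 in RWV and at 2.02, 1.80 and 1.93 in TCD, against 0.25, -0.03 and 0.00 in fresh cells. The rises were 1.76 ± 0.13 in RWV (adjusted p = 1.09e-06) and 1.84 ± 0.13 in TCD (adjusted p = 9.60e-07), and all 3 of its probe sets were called higher in both vessels.

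Eif6, whose product keeps the large ribosomal subunit from joining too early, had a similar early rise. Its values were 1.79, 1.67 and 1.94 in RWV and 1.53, 1.26 and 1.72 in TCD, against 0.00, 0.01 and -0.40 in fresh cells. The rises were 1.93 ± 0.15 in RWV (adjusted p = 2.27e-06) and 1.63 ± 0.15 in TCD (adjusted p = 9.92e-06). Eif2ak3, the eIF2 kinase that senses unfolded protein in the endoplasmic reticulum, rose by 1.77 ± 0.23 in RWV (adjusted p = 0.000115) and by 1.71 ± 0.23 in TCD (adjusted p = 0.000175), though only 1 of its 3 probe sets was called in either vessel. Eif1a, a scanning factor that helps to place initiator tRNA, rose by 1.56 ± 0.19 in RWV and by 1.68 ± 0.19 in TCD, and both of its probe sets were called. In the large scaffold complex eIF3, 4 of 11 subunits were called higher in RWV and 2 in TCD, but after centring on the reference genes 3 were higher and 3 lower in RWV and 2 were higher in TCD. Eif3c (1.15 ± 0.15 in RWV, 0.81 ± 0.15 in TCD) and Eif3a (1.10 ± 0.17 in RWV, 0.87 ± 0.17 in TCD) led them. Among all genes tested 15.1% were higher in RWV and 9.54% in TCD. After centring 10.9% were higher and 47.2% lower in RWV, and 7.3% and 26.4% in TCD. Eif1ad, a relative of Eif1a, rose by 0.95 ± 0.30 in RWV (adjusted p = 0.0328), a call lost without any 1 RWV array (adjusted p from 0.0559 to 0.114, changes from 0.80 to 1.03) or without fresh replicate 3 (0.62, 0.123). Eif4e3, a homologue of Eif4e, was not called at 0.94 ± 0.35 in RWV (adjusted p = 0.0596) and 0.83 ± 0.35 in TCD (adjusted p = 0.104), but was called with the replicate number as a block (adjusted p = 0.0206 in RWV and 0.0403 in TCD).

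Members with lower mRNA at 4 h included a kinase and a repressor. Eif2ak1, the heme-regulated eIF2 kinase, stood at -0.95, -1.64 and -1.19 in RWV and at -0.82, -1.30 and -0.41 in TCD, against 0.21, -0.14 and 0.00 in fresh cells. It fell by 1.29 ± 0.22 in RWV (adjusted p = 0.000826) and by 0.87 ± 0.22 in TCD (adjusted p = 0.0113). Of its 4 probe sets 2 were called lower in RWV and 1 in TCD. Eif4ebp2, the second eIF4E-binding repressor, fell by 0.79 ± 0.16 in RWV (adjusted p = 0.00322) and by 0.85 ± 0.16 in TCD (adjusted p = 0.00211), opposite to Eif4ebp1, with 2 of its 4 probe sets called in each vessel. Eif2a, which can bring initiator tRNA to the ribosome without eIF2, fell by 0.71 ± 0.22 in RWV (adjusted p = 0.0288). Its call ended without RWV replicate 1 (-0.75, adjusted p = 0.053) or 2 (-0.60, 0.104) or fresh replicate 1 (-0.66, 0.0808) or 3 (-0.55, 0.109), and its other probe set was at -0.27. Eif2b1, another eIF2B subunit, fell by 0.56 ± 0.17 in TCD (adjusted p = 0.0324), a call lost without TCD replicate 1 (-0.56, adjusted p = 0.0694) or 2 (-0.42, 0.114) or fresh replicate 1 (-0.51, 0.0996) or 2 (-0.47, 0.114).

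**Figure D1:**
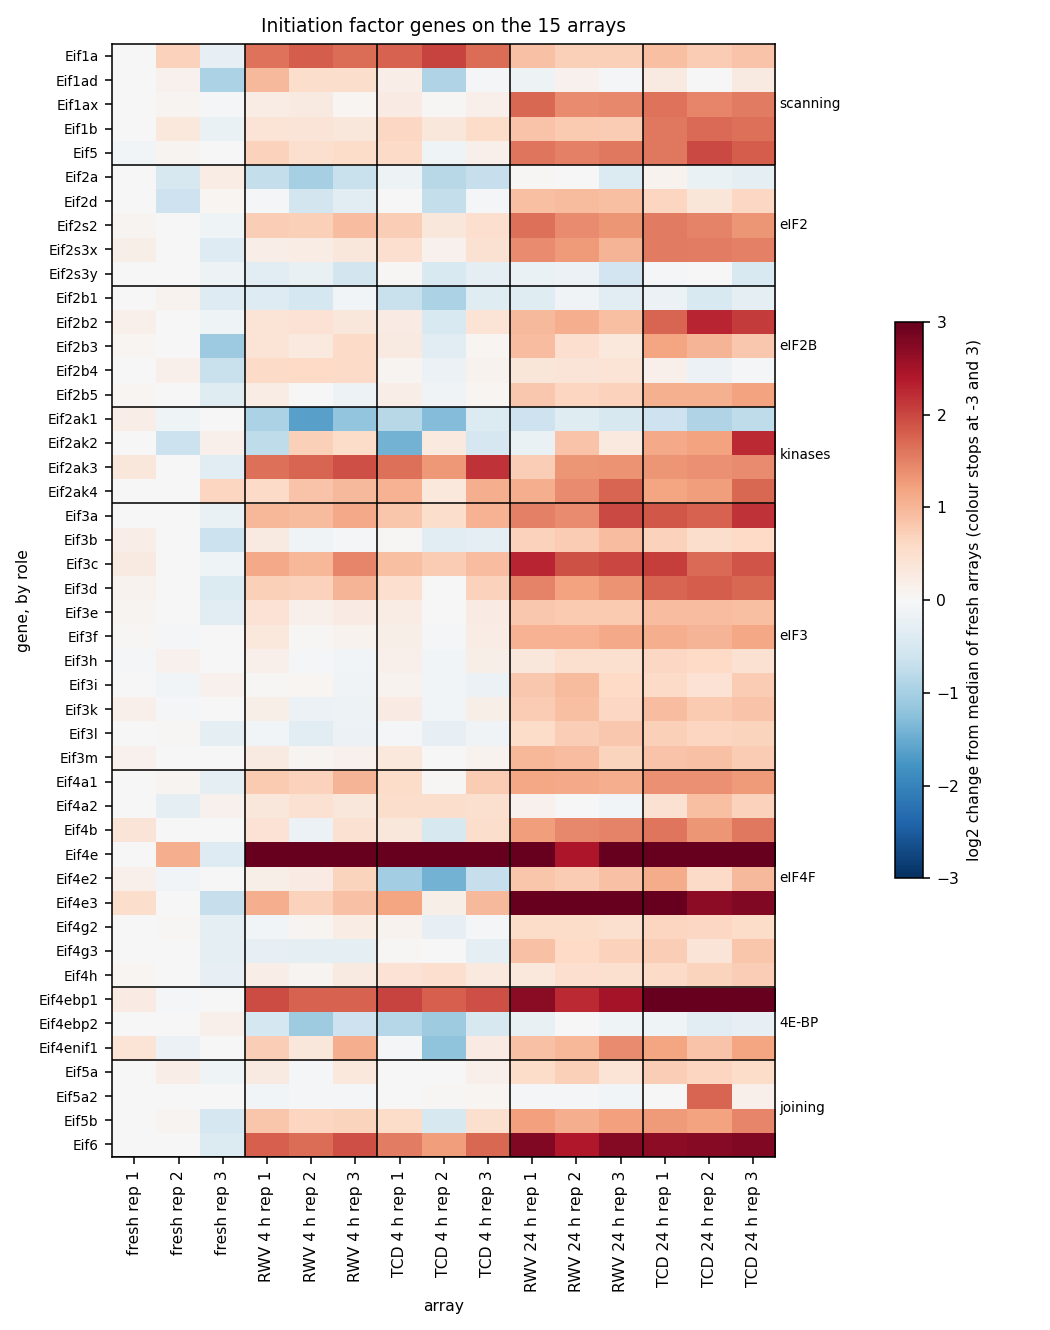
Log2 change from the median of the fresh arrays for the 46 initiation factor genes (down the page, by role) on each of the 15 arrays (across, by group). Red is above and blue below fresh; colours stop at -3 and 3, so Eif4e, at 6.02 to 6.93 on the 4 h arrays, is shown as 3.

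After 24 h most initiation factor mRNAs stood above fresh cells on the deposited scale. In RWV 37 of 46 members were higher and 0 lower than in fresh cells, and in TCD 38 were higher and 1 lower, but after centring on 7 reference genes 14 were higher and 6 lower in RWV and 11 were higher and 19 lower in TCD. Of all genes tested 49.9% were called in RWV (30.7% higher, 19.2% lower) and 56.2% in TCD (32.8% higher, 23.4% lower), and after centring 14.7% were higher and 54.2% lower in RWV and 11.3% were higher and 68.4% lower in TCD. The members' median was 0.86 in RWV and 1.0 in TCD, against 0.01 and -0.01 over all genes tested. Centring shifts all genes of an array by the same amount, and it moved the median of all genes to -0.68 in RWV and -1.21 in TCD and that of the members to 0.17 and -0.20. The reference genes had medians of 0.48 to 0.85 on the RWV arrays and of 1.11 to 1.26 on the TCD arrays at 24 h, but they differed among themselves. Their group means at 24 h ran from -0.80 (Sdha) to 1.53 (Gusb) in RWV and from -1.38 (Sdha) to 2.02 (Ywhaz) in TCD, so the centred values depend on which reference genes are taken.

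Eif4e3 and Eif4e had the largest rises of the 46 members in both vessels. Eif4e3 was at 3.44, 3.30 and 3.53 on the RWV arrays and at 3.69, 2.69 and 2.77 on the TCD arrays at 24 h, against 0.54, 0.00 and -0.69 in fresh cells. The rises were 3.47 ± 0.35 in RWV (adjusted p = 4.33e-06) and 3.10 ± 0.35 in TCD (adjusted p = 7.29e-06), and both of its probe sets were called higher. Eif4e was at 3.71, 2.42 and 3.25 in RWV and at 4.82, 4.84 and 4.84 in TCD. Against fresh cells this was a rise of 2.89 ± 0.36 in RWV (adjusted p = 2.75e-05) and of 4.59 ± 0.36 in TCD (adjusted p = 3.51e-07). Of its 4 probe sets 2 were called higher in RWV and 3 in TCD, and the other 3 were at 0.31, 1.13 and -0.45 in RWV and at 0.39, 1.47 and 1.10 in TCD. Of the 9 genes of the cap complex and its helicase cofactors 8 were higher in RWV and 9 in TCD, but after centring 3 were higher and 1 lower in RWV and 2 were higher and 4 lower in TCD. The exception in RWV was Eif4a2, at 0.06 ± 0.12, against 0.73 ± 0.12 in TCD, which centring turned to -0.63 and -0.47. Eif4a1 (1.19 in RWV, 1.40 in TCD) and Eif4e2 (0.79 in RWV, 0.86 in TCD) were called in both vessels. After centring, though, Eif4e2 was at 0.10 in RWV and -0.34 in TCD. Beside these counts, 30.7% of all genes tested were higher in RWV and 32.8% in TCD. After centring 14.7% were higher and 54.2% lower in RWV, and 11.3% and 68.4% in TCD.

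The repressor and anti-association genes that had risen early stood higher still on the probe sets used, on the deposited scale. Of 15 alternatives for the change of Eif4ebp1 from 4 h to 24 h, 2 lost the call in RWV and 1 in TCD, and 1 in each vessel turned the sign. Of 14 for Eif6, 1 lost the call and 2 turned the sign in each vessel. Eif4ebp1 was at 2.71, 2.23 and 2.49 in RWV and at 3.10, 3.07 and 3.00 in TCD, against 0.25, -0.03 and 0.00 in fresh cells, which gave rises of 2.40 ± 0.13 (adjusted p = 2.08e-08) and 2.98 ± 0.13 (adjusted p = 3.23e-09). Eif6 was at 2.77, 2.41 and 2.76 in RWV and at 2.69, 2.74 and 2.78 in TCD, which gave rises of 2.78 ± 0.15 (adjusted p = 2.90e-08) and 2.87 ± 0.15 (adjusted p = 1.57e-08) over fresh cells. Eif5a, whose product helps ribosomes past difficult peptide bonds, was at 0.53 ± 0.13 in RWV and 0.62 ± 0.13 in TCD, and at -0.16 and -0.59 after centring. Eif4ebp2 was not called, at -0.17 in RWV and -0.28 in TCD. It gained a call in 1 of 16 alternatives in RWV and in 3 of 16 in TCD, where 1 of its 4 probe sets was called lower. Eif4enif1, which carries eIF4E into the nucleus, rose by 1.02 ± 0.33 in RWV (adjusted p = 0.0209) and by 0.99 ± 0.33 in TCD (adjusted p = 0.0213). After centring it was at 0.33 in RWV and -0.21 in TCD. Both calls depended on single arrays: adjusted p was 0.0836 without RWV replicate 3 (0.86), 0.0596 without TCD replicate 1 (0.94) and 0.0619 without TCD replicate 3 (0.94). Without fresh replicate 2 it was 0.0717 in RWV (0.90) and 0.0722 in TCD (0.87), and without fresh replicate 3 it was 0.0558 (0.98) and 0.0561 (0.95).

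All 11 eIF3 subunits tested were called higher than fresh cells at 24 h in both vessels, but after centring on the reference genes 4 were higher and 0 lower in RWV and 3 were higher and 6 lower in TCD. On the deposited scale they ran from 0.42 to 2.01 in RWV (median 0.89) and from 0.53 to 2.0 in TCD (median 0.81). Among all genes tested 30.7% were higher in RWV and 32.8% in TCD as deposited. After centring 14.7% were higher and 54.2% lower in RWV, and 11.3% and 68.4% in TCD. Eif3c, a core subunit, was at 2.27, 1.90 and 2.01 in RWV and at 2.07, 1.70 and 1.88 in TCD, against 0.26, 0.00 and -0.12 in fresh cells, and all 4 of its probe sets were called higher. Eif3a, the largest subunit, rose by 1.70 ± 0.17 in RWV and by 2.0 ± 0.17 in TCD, again in all 4 probe sets. The smallest rise was that of Eif3h, at 0.42 ± 0.10 in RWV and 0.53 ± 0.10 in TCD, and centring turned it to -0.27 and -0.67.

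Other steps of initiation were less even at 24 h. Of the 5 scanning and start codon genes 4 were higher in each vessel. After centring 2 were higher in RWV, and 3 were higher and 2 lower in TCD. The shares of all genes tested were 30.7% higher in RWV and 32.8% in TCD. After centring they were 14.7% higher and 54.2% lower in RWV, and 11.3% and 68.4% in TCD. Eif5, the GTPase activator of eIF2, was at 1.61, 1.52 and 1.58 in RWV and at 1.59, 1.98 and 1.82 in TCD, against -0.08, 0.08 and 0.00 in fresh cells, and all 5 of its probe sets were called higher. Eif1a had come down from its early level, to 0.61 ± 0.19 above fresh cells in RWV (adjusted p = 0.0165) and 0.69 ± 0.19 in TCD (adjusted p = 0.00705). The RWV call of Eif1a ended without RWV replicate 1 (0.56, adjusted p = 0.0574) or fresh replicate 1 (0.54, 0.0592) or 3 (0.42, 0.0721), and centring turned the changes of Eif1a to -0.08 in RWV and -0.51 in TCD.

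Genes of eIF2 and of its exchange factor differed among themselves. Of the 3 eIF2 subunit genes together with Eif2a and Eif2d, which are not eIF2 subunits but can bring tRNA to the ribosome without it, 3 of 5 were higher in each vessel, namely Eif2s2 (1.47 in both), Eif2s3x (1.30 in RWV, 1.60 in TCD) and Eif2d (1.10 in RWV, 0.73 in TCD), while after centring 2 were higher and 2 lower in RWV and 0 were higher and 2 lower in TCD. Eif2a (-0.04 in RWV, -0.03 in TCD) and Eif2s3y (-0.28 in RWV, -0.14 in TCD) were not called. The probe sets of Eif2d disagreed: 1 of its 4 was at -0.11 in both vessels, and without fresh replicate 2 the TCD call was lost (0.51, adjusted p = 0.0565). Of the 5 eIF2B subunits 4 were higher in RWV and 3 in TCD, but after centring 0 were higher and 1 lower in RWV and 1 was higher and 2 lower in TCD. Eif2b5, the catalytic subunit, was at 0.82 ± 0.13 in RWV and 1.21 ± 0.13 in TCD. Eif2b1 was not called in either vessel (-0.16 in RWV, -0.21 in TCD). For comparison, 30.7% of all genes tested were higher in RWV and 32.8% in TCD. After centring 14.7% were higher and 54.2% lower in RWV, and 11.3% and 68.4% in TCD.

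The 4 eIF2 kinases did not move as 1 group. Eif2ak3 was at 1.14 ± 0.23 in RWV (adjusted p = 0.00117) and 1.36 ± 0.23 in TCD (adjusted p = 0.000234). The call of Eif2ak3 was lost in 2 of 15 alternatives in RWV and in 1 of 15 in TCD. Eif2ak4, which senses uncharged tRNA, was called at 1.21 in RWV and 1.17 in TCD. Centring on the reference genes turned the sign of the Eif2ak4 change in TCD, and its RWV call was lost in 1 of 12 alternatives. Eif2ak1 fell by 0.79 ± 0.22 in TCD (adjusted p = 0.00802) and was not called in RWV (-0.52 ± 0.22, adjusted p = 0.0667), where it was called lower in 7 of 16 alternatives, the replicate block among them (adjusted p = 0.0409). Eif2ak2, which senses double-stranded RNA, varied widely between replicates, at -0.21, 0.86 and 0.29 in RWV and at 1.13, 1.21 and 2.23 in TCD, against 0.00, -0.64 and 0.15 in fresh cells. It was called in TCD (1.69 ± 0.50, adjusted p = 0.0121, and 1.33, 0.059 without TCD replicate 3) and not in RWV (0.47 ± 0.50, adjusted p = 0.472).

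Between 4 h and 24 h most members went up and the early Eif4e signal came down. In RWV 29 of 46 members were higher at 24 h than at 4 h and 4 were lower, and in TCD 33 were higher and 2 lower, but after centring 12 were higher and 6 lower in RWV and 5 were higher and 10 lower in TCD. Of all genes tested 41.6% were called in RWV (26.4% higher, 15.1% lower) and 55.6% in TCD (36.1% higher, 19.5% lower), and after centring 16.2% were higher and 29.5% lower in RWV and 12.6% were higher and 60% lower in TCD. The members' median was 0.60 in RWV and 0.80 in TCD, against 0.04 and 0.06 over all genes. Eif4e was lower at 24 h than at 4 h on the probe set used. The change was -3.70 ± 0.36 in RWV (adjusted p = 6.02e-06) and -1.54 ± 0.36 in TCD (adjusted p = 0.00276). Of the 4 Eif4e probe sets 3 were called lower in each vessel. The other averaged 1.44 at 4 h and 1.12 at 24 h in RWV, and 1.24 and 1.45 in TCD. Eif1a was lower too, by -0.95 ± 0.19 in RWV and -0.98 ± 0.19 in TCD, in 1 of its 2 probe sets. All 11 eIF3 subunits were higher at 24 h than at 4 h in both vessels (0.43 to 0.91 in RWV, 0.47 to 1.36 in TCD), although after centring 4 were higher in RWV and 1 was lower in TCD.

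The RWV to TCD comparison at 4 h asks whether aggregates and monolayers differed early. In these genes 1 of 46 members was called, Eif4e2, which was higher in RWV, and 0 were lower, against 6.17% of all genes tested (5.5% higher, 0.668% lower). After centring it was again 1 higher and 0 lower, against 2.56% higher and 0.741% lower over all genes. With the replicate number as a block 2 were higher, the second being Eif4enif1 (1.06, adjusted p = 0.0296). The block gave 763 genes higher and 97 lower over all genes tested. The members' median difference was 0.09, against -0.01 over all genes tested, and -0.05 after centring, against -0.15. Eif4e2 encodes a cap-binding homologue of eIF4E that does not bind eIF4G and is known to repress translation. It was at 0.17, 0.24 and 0.68 on the RWV arrays and at -1.05, -1.41 and -0.69 on the TCD arrays. The difference was 1.41 ± 0.19 (adjusted p = 0.00181), with the fresh arrays at 0.16, -0.07 and 0.00. Its TCD values were below fresh cells by -1.08 ± 0.19 (adjusted p = 0.00136), while RWV was not called against fresh cells (0.33 ± 0.19, adjusted p = 0.229).

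The call of Eif4e2 held in 2 of its 5 probe sets, at 1.41 and 0.82, and the other 3 were at 0.19, 0.08 and -0.14. With only the 6 arrays compared in the fit its adjusted p was 0.0827, and 0 members were called, against 4 at an unadjusted p below 0.05. Its values ran opposite to the background of the arrays (correlation -0.87 over 15 arrays), and at 4 h the background medians were -0.065 to -0.017 on the RWV arrays and 0.019 to 0.066 on the TCD arrays; the part of the background in the difference was not tested. Eif4enif1, with 0.73, 0.34 and 1.10 on the RWV arrays and -0.03, -1.21 and 0.24 on the TCD arrays, had the second largest difference (1.06 ± 0.33, adjusted p = 0.0861) and a correlation of -0.90 with that background. Its lowest value was on TCD replicate 2, the array with the high hybridisation controls.

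At 24 h the vessels differed in 5 initiation factor genes. All 5, Eif4e, Eif2b2, Eif1b, Eif4a2 and Eif4ebp1, were lower in RWV than in TCD, 0 were higher and 41 of 46 were not called, but after centring 20 members were higher and 2 lower, and of the 5 only Eif4e and Eif2b2 were still called lower. Of all genes tested 15.2% were called (8.36% higher, 6.86% lower), and after centring 51.4% were higher and 3.06% lower. With the replicate number as a block 6 members were lower and 0 higher, against 1210 higher and 983 lower over all genes tested. The members' median difference was -0.09 as deposited, and 0.42 after centring, which moved the median of all genes to 0.51. For Actb, the signal near the 3′ end minus that near the 5′ end, which moves with RNA quality, was -0.26 to -0.218 on the RWV arrays and -0.447 to -0.431 on the TCD arrays at 24 h, and the mean of 3 cholangiocyte markers was 0.82 to 1.29 on the RWV arrays and 2.74 to 3.97 on the TCD arrays. The mean of 7 Kupffer cell and macrophage markers was 0.90 to 2.57 on the RWV arrays and 0.81 to 1.52 on the TCD arrays. The part of each in these differences was not tested.

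Eif4e had the largest difference of the 5. Its values of 3.71, 2.42 and 3.25 in RWV lay below 4.82, 4.84 and 4.84 in TCD on every array, with means of 3.13 ± 0.65 and 4.83 ± 0.014 (SD, n = 3 each). The difference was -1.70 ± 0.36 (adjusted p = 0.00663), and -1.19 after centring (adjusted p = 0.00945). A second probe set was also called lower (-1.55, adjusted p = 0.00479), and its other 2 were not (-0.33 and -0.07). Eif2b2 was the most even across probe sets. It was at 0.97, 1.09 and 0.90 in RWV and at 1.74, 2.29 and 2.11 in TCD. The difference was -1.06 ± 0.20 (adjusted p = 0.0032), and all 3 probe sets of Eif2b2 were called lower. Their names mark all 3 as probe sets of shared sequence, so Eif2b2 dropped out of the alternative without such probe sets.

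The remaining 3 calls were smaller and were lost after centring. Eif1b was at 0.85, 0.78 and 0.77 in RWV and at 1.59, 1.70 and 1.66 in TCD, a difference of -0.85 ± 0.12 (adjusted p = 0.000576), and -0.34 after centring (adjusted p = 0.0718). Eif4a2 was at 0.12, -0.00 and -0.08 in RWV and at 0.46, 0.91 and 0.69 in TCD, a difference of -0.67 ± 0.12 (adjusted p = 0.00306), and -0.16 after centring (adjusted p = 0.433). Both genes had 1 probe set off the background. Eif4ebp1 was at 2.71, 2.23 and 2.49 in RWV and at 3.10, 3.07 and 3.00 in TCD, a difference of -0.58 ± 0.13 (adjusted p = 0.00838), and -0.06 after centring (adjusted p = 0.699). The other 2 probe sets of Eif4ebp1 were not called (-0.30 and 0.09). In all 3 genes every RWV array lay below every TCD array on the deposited scale. The genes were picked by a test on the same arrays, so this split, here or for Eif4e, adds no support to the calls. Its share over all genes is not given here.

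The paralogues of the called genes were not called at 24 h by the limma fit on the deposited scale. Eif4a1, the other eIF4A helicase of the cap complex, was at 1.15, 1.14 and 1.10 in RWV and at 1.38, 1.36 and 1.28 in TCD (-0.21 ± 0.16, adjusted p = 0.488). Eif4e2 (-0.07 ± 0.19) and Eif4e3 (0.37 ± 0.35) were not called, nor was Eif4ebp2 (0.11 ± 0.16). Among the other eIF2B subunits Eif2b5 was at -0.39 ± 0.13 (adjusted p = 0.0682), Eif2b3 at -0.41, Eif2b1 at 0.05 and Eif2b4 at 0.40. A call was gained in 1 alternative each for Eif4a1 (of 15), Eif4e3 (of 14), Eif4ebp2 (of 16) and Eif2b1 (of 13). It was gained in 3 each for Eif2b4 (of 12) and Eif2b5 (of 13), and in 0 for Eif4e2 and Eif2b3. Tested by itself, a probe set was called lower in 2 of 3 for Eif2s3x and in 1 each for Eif2ak2, Eif3m and Eif5, and higher in 1 each for Eif1ax and Eif2s2. The 11 eIF3 subunits lay between -0.41 and 0.19 with 0 called by limma and 1 at an unadjusted p below 0.05. After centring, though, 9 were called higher. Among all genes tested 15.2% were called as deposited, and after centring 51.4% were higher and 3.06% lower. Of the 4 kinases 0 were called and 1 had an unadjusted p below 0.05, namely Eif2ak2 at -1.21 ± 0.50 (adjusted p = 0.139).

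**Figure D2:**
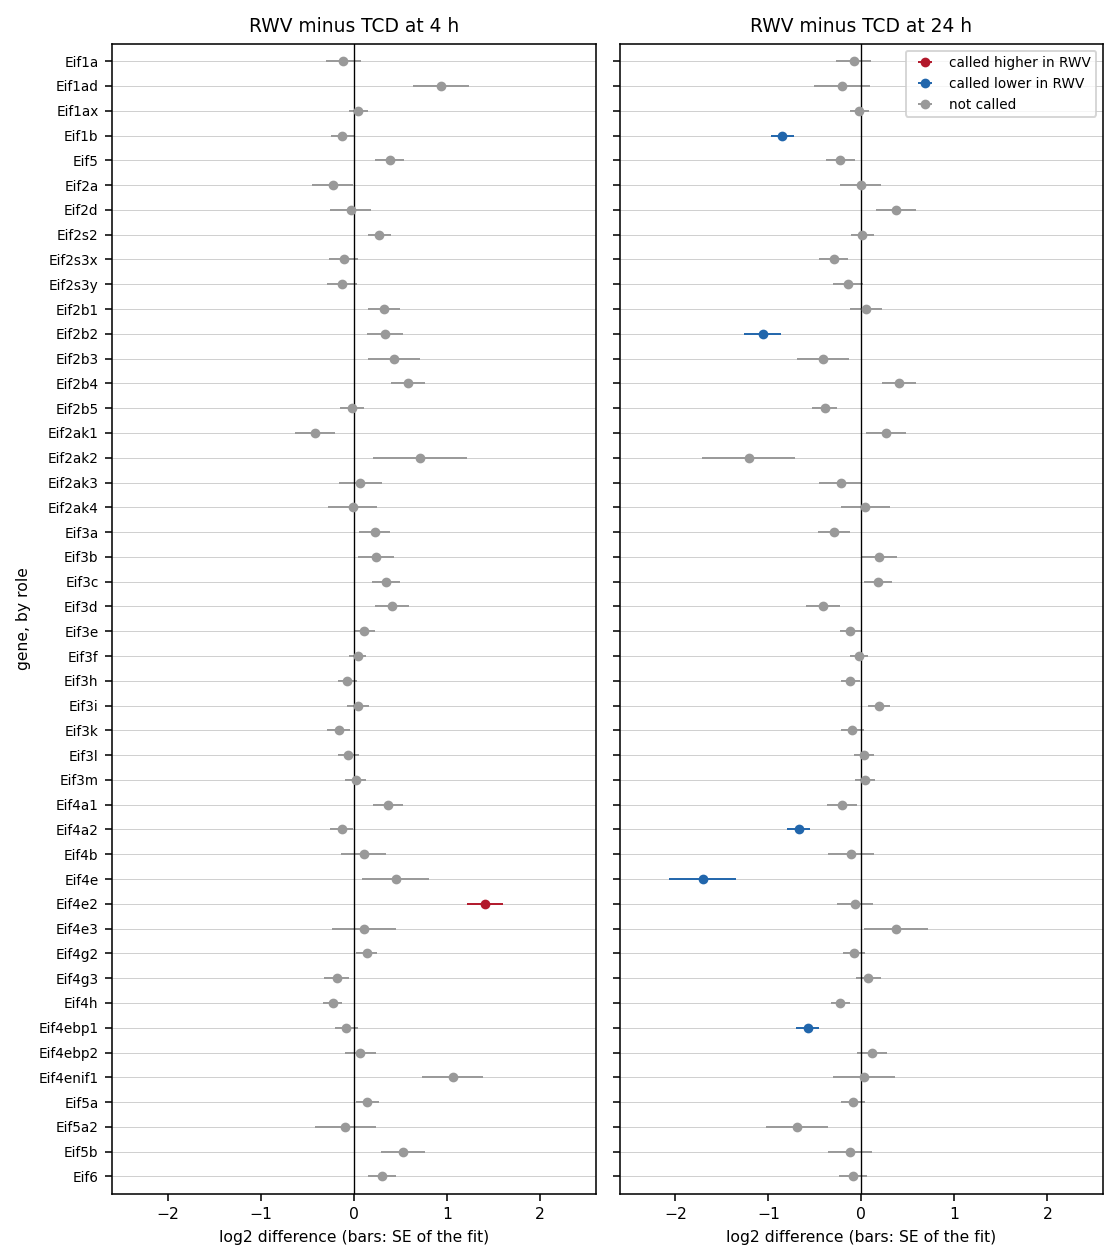
RWV minus TCD log2 difference of the 46 initiation factor genes at 4 h and 24 h, with the standard error of the fit as bars (3 arrays per group). Eif4e2 is called higher at 4 h, and Eif4e (-1.70), Eif2b2 (-1.06), Eif1b (-0.85), Eif4a2 (-0.67) and Eif4ebp1 (-0.58) are called lower at 24 h on the deposited scale; after centring on reference genes 20 members were called higher and 2 lower at 24 h.

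**Figure D3:**
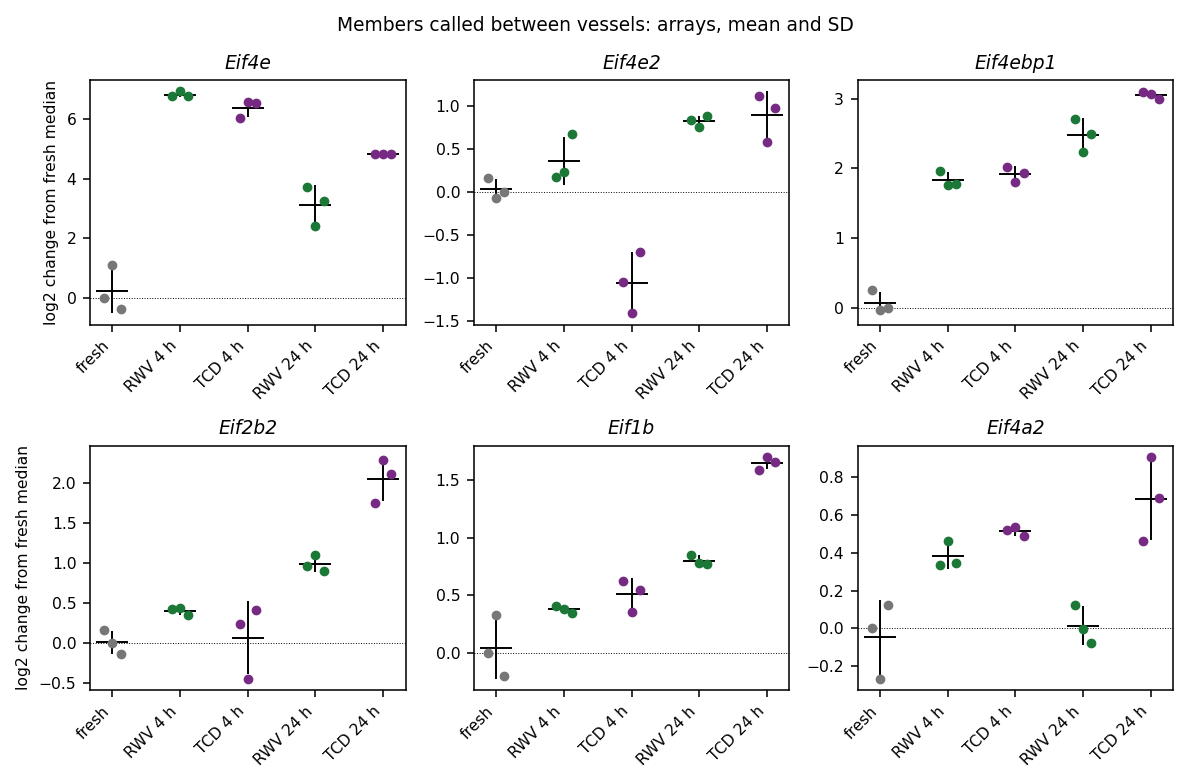
Log2 change from the fresh median on each array (points), with the group mean and SD (lines, n = 3), for the 6 members called between the vessels at 4 h or 24 h. At 24 h the RWV points of Eif4e, Eif4ebp1, Eif2b2, Eif1b and Eif4a2 lie below the TCD points, and at 4 h those of Eif4e2 lie above them.

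The difference between the vessels at 24 h minus that at 4 h, the interaction, was tested next. It was called in 4 of 46 members, Eif4e (-2.15 ± 0.51, adjusted p = 0.0166), Eif4e2 (-1.48 ± 0.27, adjusted p = 0.00511), Eif2b2 (-1.39 ± 0.28, adjusted p = 0.00784) and Eif1b (-0.72 ± 0.17, adjusted p = 0.017). All 4 were negative, that is, RWV stood lower against TCD at 24 h than at 4 h, but after centring 11 members were positive calls and 2 negative. Of all genes tested 12.7% were called (4.93% positive, 7.73% negative), and after centring 42.7% were positive and 2.99% negative. With the replicate number as a block 5 members were negative and 0 positive, against 744 positive and 1151 negative over all genes tested. The 4 called without the block had different courses. Eif4e came down further after 4 h in RWV, Eif2b2 and Eif1b went up further in TCD, and Eif4e2 went up in TCD from its low 4 h values. The interactions of Eif4a2 (-0.54 ± 0.18, adjusted p = 0.0662) and Eif4ebp1 (-0.50 ± 0.18, adjusted p = 0.0915) were not called.

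Probe sets of 1 gene differed in how they moved after 4 h. Of the 46 members, 32 had more than 1 probe set off the background, and 5 of them, Eif1ax, Eif2s2, Eif4ebp1, Eif4h and Eif6, had probe sets called in opposite directions between 24 h and 4 h in at least 1 vessel. For Eif4ebp1 the probe set used averaged 2.48 in RWV and 3.05 in TCD at 24 h, and 1.84 in RWV and 1.92 in TCD at 4 h. Another averaged 0.68 in RWV and 0.59 in TCD at 24 h, and 1.30 in RWV and 1.17 in TCD at 4 h. The late rise of Eif4ebp1 is thus uncertain, while its rise over fresh cells was called in every probe set except 1 in TCD at 24 h. For Eif6 the probe set used was higher at 24 h than at 4 h, by 0.85 in RWV and 1.24 in TCD, and the other was lower, by -0.43 in RWV and -0.52 in TCD. Both probe sets of Eif6 stood more than 2 units above fresh cells at 24 h in both vessels.

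**Figure D4:**
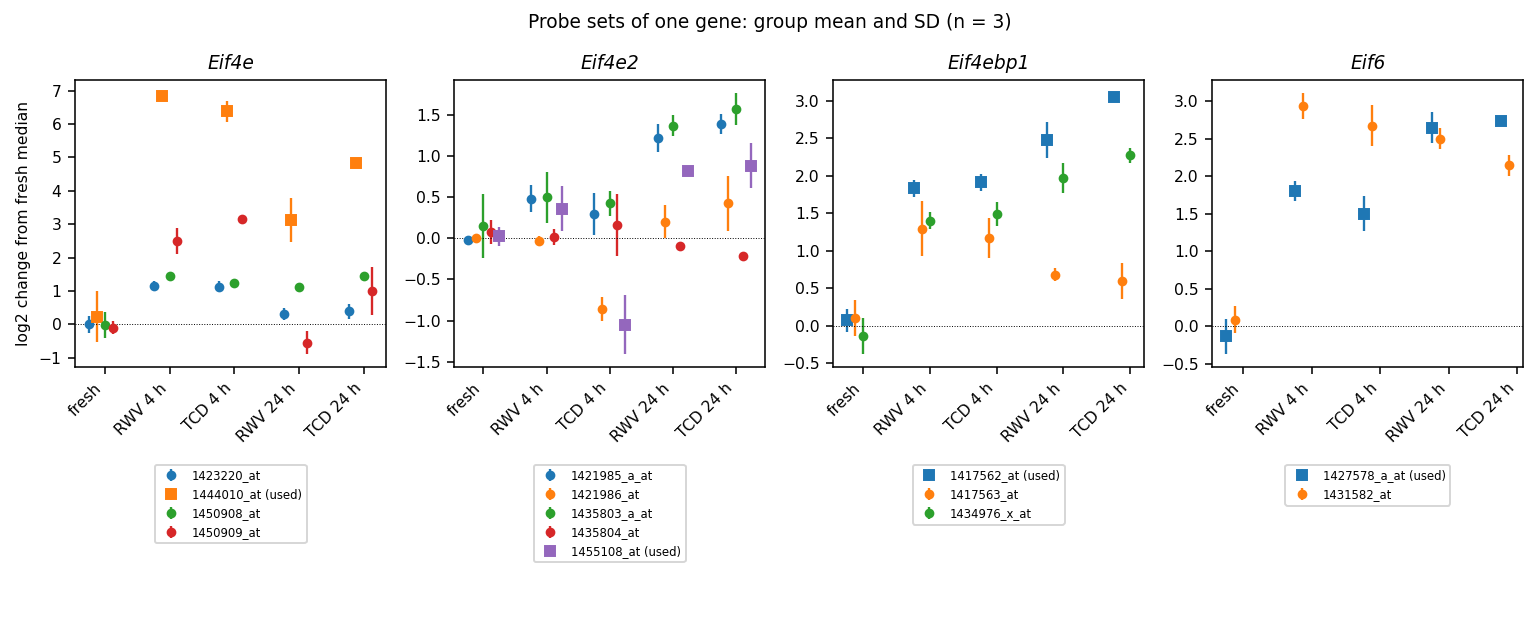
Group mean and SD (n = 3) of every probe set off the background for Eif4e, Eif4e2, Eif4ebp1 and Eif6, as log2 change from the fresh median; the square is the probe set that stands for the gene. Eif4e probe sets averaged between 1.14 and 6.82 at 4 h, and those of Eif4ebp1 and Eif6 part between 4 h and 24 h.

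As a description over the 15 arrays, which share their culture groups, the members most like Eif4e were Eif1a (Pearson's r = 0.93), Eif2ak3 (0.90) and Eif4a2 (0.68). Those most like Eif4ebp1 were Eif6 (0.97), Eif3a (0.95) and Eif3c (0.92). Eif4e, Eif1a and Eif2ak3 had their highest group means at 4 h, Eif4a2 in TCD at 24 h, and Eif4ebp1, Eif6, Eif3a and Eif3c at 24 h, on the probe sets used.

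Of 30 partners and regulators of initiation outside the Eif symbols, 28 were tested. At 24 h 4 were higher and 2 lower in RWV than in TCD, and after centring 12 were higher and 0 lower, against 8.36% higher and 6.86% lower over all genes as deposited and 51.4% and 3.06% after centring. Mknk1, a kinase that phosphorylates eIF4E, was at 2.78, 2.62 and 2.45 in RWV and at 2.04, 1.07 and 1.15 in TCD (1.19 ± 0.36, adjusted p = 0.0424), and all 3 of its probe sets were called higher. Its call was lost without any 1 RWV array or without TCD replicate 2 or 3 (adjusted p between 0.0768 and 0.158, with differences of 1.02 to 1.28). Pdcd4, an inhibitor of eIF4A, was at -2.05, -1.17 and -1.62 in RWV and at -2.74, -2.79 and -2.75 in TCD (1.15 ± 0.24, adjusted p = 0.00647). Both groups lay below all 3 fresh arrays, which were at 0.00, -0.24 and 0.66. Mtor, the kinase of the eIF4E-binding proteins, was at 0.20, 0.71 and 0.76 in RWV and at -0.38, -0.60 and -0.34 in TCD (0.99 ± 0.16, adjusted p = 0.00135), but its second probe set was at -0.16.

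Mcts1, which acts with Denr in ribosome recycling, was also higher in RWV at 24 h (0.65 ± 0.13, adjusted p = 0.00471). Paip2b, which holds back the poly(A)-binding protein, was lower (-0.94 ± 0.16, adjusted p = 0.00209), and -0.43 after centring (adjusted p = 0.0621), with 1 of its 2 probe sets called. Bzw2, a mimic of eIF5, was lower (-0.67 ± 0.20, adjusted p = 0.0417), a call lost without any 1 of the 6 arrays (adjusted p from 0.0571 to 0.143, differences from -0.74 to -0.58), with the replicate number as a block (0.0537) and after centring (-0.16). At 4 h the 1 call among the partners was Pabpc1, the poly(A)-binding protein gene, at 2.16, 2.78 and 3.35 in RWV and 0.54, -0.75 and 0.82 in TCD (2.56 ± 0.61, adjusted p = 0.0298). Its other probe set was at 0.19, and the fresh arrays of the called one already ran from -0.61 to 2.18. The call was lost without RWV replicate 2 (2.55, adjusted p = 0.0804) or 3 (2.27, 0.118) or TCD replicate 2 (2.08, 0.109).

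Against fresh cells Ppp1r15a rose and Dnajc3 fell, while Impact, which also acts on an eIF2 kinase, stood higher. Impact averaged 1.76 in RWV and 1.57 in TCD at 4 h, 1.49 and 2.19 at 24 h, and -0.18 in fresh cells. Ppp1r15a, which brings a phosphatase to eIF2, was at 2.91, 3.47 and 3.35 in RWV and at 3.43, 3.68 and 3.69 in TCD at 4 h, against 0.00, -0.28 and 0.58 in fresh cells. The rises were 3.14 ± 0.26 in RWV (adjusted p = 3.34e-06) and 3.50 ± 0.26 in TCD (adjusted p = 1.74e-06), and at 24 h it was still 1.64 higher in RWV and 2.38 higher in TCD. Dnajc3, an inhibitor of eIF2 kinases, fell by 1.84 ± 0.32 in RWV (adjusted p = 0.000398) and by 2.52 ± 0.32 in TCD (adjusted p = 2.32e-05) at 24 h, in 4 of its 5 probe sets. Gigyf2, which binds the product of Eif4e2 in repression of mRNA, was at 2.73 ± 0.33 in RWV and 2.31 ± 0.33 in TCD at 4 h on the probe set used, but of its 3 probe sets 2 were called higher and 1 lower (-0.77 in RWV, -1.52 in TCD), so its direction is uncertain. Pabpc4, a second poly(A)-binding protein gene, rose by 2.38 ± 0.17 in RWV and by 2.73 ± 0.17 in TCD at 24 h. Of the 28 partners 17 were higher and 3 lower in RWV at 24 h than in fresh cells, and 15 were higher and 4 lower in TCD, but after centring 6 were higher and 8 lower in RWV and 5 were higher and 16 lower in TCD. Over all genes 30.7% were higher and 19.2% lower in RWV and 32.8% were higher and 23.4% lower in TCD, and after centring 14.7% and 54.2% in RWV and 11.3% and 68.4% in TCD.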

How the data were processed

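The arrays hold 45101 probe sets for total RNA of mouse hepatocytes. The authors deposited log2 values made with GCRMA, per the submitters' processing notes, whose version is not named. In every probe set the median of the 3 fresh arrays was exactly 0, which showed that it had been subtracted; base 2 was taken from GCRMA's own scale. Gene symbols came from the platform annotation, updated by gene ID where a current one was known (34741 of 34945 probe sets with 1 symbol); 932 had several symbols and 9160 none.

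Probe sets that followed the background were left out, namely 19608 that correlated above 0.8 with the array medians of the 20% least variable ones and had an SD below 0.5. Each of the 12423 genes left was tested with limma 3.58.1 in R 4.3.3 on all 15 arrays at once, with 10 residual degrees of freedom and Benjamini-Hochberg adjustment over all genes. On simulated data for RWV against TCD at 24 h (12423 genes, 50 changed at each size), 22% of changes of 0.5, 60% of 1, 90% of 2 and 98% of 3 log2 units were recovered. The simulated noise was normal and independent between arrays, and far fewer genes changed than the 15.2% called in the data. The shares recovered are therefore not those of the real test.

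Replicate numbers recur in the labels, which do not say what they mark. In 5 of 10 pairs of groups all 3 same-numbered arrays deviated together (correlation over 0.1), and each of the 15 arrays deviated most like one with its own number, so the block was run as an alternative. The members and lists were chosen with earlier results of these data known. Members called between the vessels, the 6 largest changes each way at 24 h and 4 at 4 h and a list of core factors were given in detail; other members stand as examples of their role. Partners outside the symbol rule were named where called between the vessels, plus up to 4 with the largest change against fresh. Alternatives were the block, array weights, other filters and probe set choices, centring on 7 reference genes (Tbp, Hprt, Sdha, Ywhaz, Gusb, B2m, Polr2a), the compared arrays alone and leaving out each array. The number of arrays limits the precision. Testing each probe set by itself was chosen after seeing the data.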

Additional observations from a re-analysis of the deposited data

Results flagged for a closer look

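The difference between RWV and TCD changed from 4 h to 24 h in 4 of 46 initiation factor genes, by the interaction test of the limma fit on all 15 arrays. That is 8.7% of the members, against 12.7% of all genes tested, so members were not called more often than other genes. The change in the difference was -2.15 for Eif4e (adjusted p = 0.0166), -1.48 for Eif4e2 (adjusted p = 0.00511), -1.39 for Eif2b2 (adjusted p = 0.00784) and -0.72 for Eif1b (adjusted p = 0.017). Eif2b2 was called in all 3 of its probe sets, which are all of shared sequence. The call held in 2 of 5 for Eif4e2 and in 1 of 4 for Eif4e, and Eif1b had only 1. After centring 11 members were called positive and 2 negative, against 42.7% and 2.99% of all genes tested. After centring on the reference genes Eif2b2 was at -0.75 (adjusted p = 0.0624) and Eif1b at -0.07 (adjusted p = 0.799). Centring shifts the interaction of all genes by the same amount, which put the median of all genes at 0.65.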

How the results depend on the processing

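Of 4554 values of named genes recomputed with another choice, 4198 kept their side of the threshold (195 of these, called in neither case, changed sign), 186 lost the call, 135 gained one and 35 changed sign where called before or after. Of 450 values of single other probe sets, 339 kept their side (48 changed sign), 82 lost the call (28 with the other sign), 23 gained one (3 with the other sign) and 6 were called in the opposite direction. With the replicate number as a block, the counts of members called were 2 (RWV against TCD at 4 h), 6 (at 24 h), 5 (interaction), 22 and 18 (RWV and TCD at 4 h against fresh), 38 and 39 (at 24 h against fresh) and 34 and 36 (24 h against 4 h in RWV and TCD). For RWV against TCD at 4 h the count without the background filter was 5 of 47, while 1332 of all 18193 genes were higher and 5596 lower. It was 3 (959, 328) with array weights and 0 (86, 23) with only the 6 arrays compared, where 4 members had an unadjusted p below 0.05. Leaving out 1 array gave 1 to 2. At 24 h it was 22 (6389, 380) after centring, 8 (1608, 1449) with array weights, 10 (1226, 1130) with only the arrays compared, and 5 whichever array was left out. For the interaction it was 7 without the filter, while 2043 of 18193 genes were positive and 1104 negative. It was 7 (673, 1066) with the probe sets of each gene averaged, 13 (5303, 371) after centring and 9 (1221, 1539) with array weights, and 4 to 6 leaving out 1 array. Against fresh it was 10 (705, 827) in TCD at 4 h with only the arrays compared and 20 (1829, 6729) in RWV at 24 h after centring. Leaving out 1 array gave 14 to 20 in RWV and 15 to 20 in TCD at 4 h, and 34 to 37 in RWV and 37 to 39 in TCD at 24 h. For 24 h against 4 h it was 18 (2017, 3664) in RWV and 15 (1560, 7449) in TCD after centring, and 26 to 31 and 35 to 36 leaving out 1 array. Centring turned the sign of these changes. Between the vessels at 24 h Eif3h was at 0.40 and Eif6 at 0.42, and Eif3h was at 0.60 in the interaction. In RWV at 24 h against fresh Eif4a2 was at -0.63, Eif1a at -0.075, Eif3h at -0.27, Eif5a at -0.16 and Eif2b4 at -0.13. In TCD at 24 h against fresh Eif4e2 was at -0.34, Eif4enif1 at -0.21, Eif4a2 at -0.47, Eif1a at -0.51, Eif1ad at -0.74, Eif3h at -0.67, Eif5a at -0.59, Eif2d at -0.47, Eif2ak4 at -0.032 and Eif2b4 at -1.05. In TCD at 24 h against 4 h Eif4ebp2 was at -0.40, Eif4a1 at -0.093, Eif4a2 at -0.80, Eif2b1 at -0.62, Eif2ak1 at -0.89, Eif3h at -0.50, Eif5a at -0.37, Eif2s2 at -0.042, Eif2s3y at -0.92 and Eif2d at -0.18. Without probe sets of shared sequence, Eif2a was at 0.43 in TCD at 24 h against fresh and Eif2d at -0.11 in both vessels, while at 24 h against 4 h Eif6 was at -0.43 in RWV and -0.52 in TCD, and Eif2d at -0.15 in RWV and -0.26 in TCD. In another probe set, an alternative chosen after seeing the data, the 24 h against 4 h change was -0.61 in RWV and -0.58 in TCD for Eif4ebp1, -0.43 and -0.52 for Eif6, and -0.74 and -0.63 for Eif2s2. The cause of these turns was not tested. With 3 arrays per group, small changes can be missed, and the values give no level of any gene.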

Other observations

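Of 11 elongation and release factor genes 10 were tested. At 24 h 5 were higher and 0 lower than fresh cells in each vessel on the deposited scale, but after centring on the reference genes 3 were higher and 3 lower in RWV and 1 was higher and 4 lower in TCD. Over all genes tested 30.7% were higher and 19.2% lower in RWV and 32.8% were higher and 23.4% lower in TCD, and after centring 14.7% and 54.2% in RWV and 11.3% and 68.4% in TCD. Etf1, which reads stop codons, was at 2.09 in RWV and 2.18 in TCD, Eef1e1, a cofactor of the tRNA synthetase complex, at 1.5 in RWV and 1.79 in TCD, and Eef2, the translocation factor, at 0.74 in RWV and 0.90 in TCD. Between the vessels at 4 h the 1 call was Gspt1, which releases the finished chain with Etf1, at 1.94 by the limma fit (adjusted p = 0.0377), in 1 of its 6 probe sets. The call of Gspt1 was lost without RWV replicate 2 (1.89, adjusted p = 0.102) or 3 (1.42, 0.136) or TCD replicate 1 (2.07, 0.0515) or 2 (1.62, 0.134), with only the 6 arrays compared (0.244) and after centring (1.81, 0.067).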
